A study of Saccharomyces cerevisiae with 16 samples.

Results

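The 9 genes ZWF1, SOL3, SOL4, GND1, GND2, TKL1, TKL2, TAL1 and NQM1 encode enzymes of the pentose phosphate pathway of Saccharomyces cerevisiae. They were taken from a list of named genes, and they are 9 of the 6002 protein-coding genes in which 3′ end tags were counted. All 9 passed the filter on low counts. The labels give strain BY4741, a haploid a-type strain that carries his3, leu2, ura3 and met15 mutations, for every library. The microcolonies grew from cells encapsulated 1 to a particle of alginate, in YPD, a rich glucose medium.

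The 14 libraries compared fell into 6 groups. Small colonies (2 libraries) and big colonies (3 libraries) had been fixed with ethanol and sorted by size. Unsorted particles were fixed with ethanol (3 libraries) or were not fixed (2 libraries). Batch cultures without particles were taken at Abs600 2 (2 libraries) and Abs600 0.5 (2 libraries). All groups share the strain and the medium, and each library is a bulk sample, in which fewer cells with a transcript and less of it per cell cannot be told apart. The labels say nothing of shared days or cultures, so the p-values measure only the spread between these samples.

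The pentose phosphate pathway oxidizes glucose 6-phosphate in its oxidative branch, which yields NADPH for biosynthesis and antioxidant defence. Its non-oxidative branch interconverts sugar phosphates and supplies ribose 5-phosphate for nucleotides. In yeast, ZWF1 encodes the single glucose 6-phosphate dehydrogenase, while 4 later steps are each covered by a pair of genes. Of each pair, SOL3, GND1, TKL1 and TAL1 are here called the growth forms, and SOL4, GND2, TKL2 and NQM1, known for expression in stress or slow growth, the stress forms.

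A tag marks 1 transcript end whatever the length of the gene, so levels, in CPM (gene tags scaled to a library of 1000000), can be set side by side between genes. The libraries held 1506960 to 7871184 tags. Replicates of a group correlated at 0.867 to 0.945 over all genes, apart from the 2 small-colony libraries at 0.529. Small replicate 4 has a sample type label that reads as unfixed, against its title and description, and was kept by its title. The a-cell genes MFA1, MFA2 and STE2 had tags in all 14 libraries, and the alpha-cell genes MF(ALPHA)1, MF(ALPHA)2 and STE3 reached at most 13.6 CPM, in small replicate 4. That library also held 519 LEU2 tags, all after the ORF, against 0 to 7 in each of the 13 others, and 3 tags of MET17 (the gene of met15), against 0. The other marker genes of the strain, HIS3 and URA3, had tags in every group. Their group means were 158 to 691 CPM for HIS3 and 2.57 to 30.3 CPM for URA3. In ORFs of isolated genes the antisense share of tags was 19.9% and 20.6% in unfixed particles, against 2.75% to 9.89% in fixed unsorted particles, 3.44% and 13.5% in batch culture at Abs600 2 and 6.64% and 4.88% at Abs600 0.5. It was 21.3% and 18.2% in small colonies, against 6.11% to 8.64% in big colonies. Its part in the results below was not tested.

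The regions upstream of 6 of the genes are shown because they differ in the short elements they hold. Each is the 300 nt before the ORF, 5′ to 3′ on the gene's strand, read from the RefSeq R64 genome. Capitals mark the stress response element AGGGG (the site of Msn2 and Msn4), the Yap1 element TTACTAA and the Stb5 element CGGNGTTA or CGGNCTTA, each searched on both strands. None of these matches overlapped another. The regions are chrXIV:197944-198243 on the minus strand for ZWF1, chrVII:985672-985971 on the plus strand for SOL4, chrVIII:470660-470959 on the plus strand for GND1, chrVII:1004324-1004623 on the plus strand for GND2, chrII:476438-476737 on the minus strand for TKL2 and chrVII:581437-581736 on the minus strand for NQM1.
ZWF1: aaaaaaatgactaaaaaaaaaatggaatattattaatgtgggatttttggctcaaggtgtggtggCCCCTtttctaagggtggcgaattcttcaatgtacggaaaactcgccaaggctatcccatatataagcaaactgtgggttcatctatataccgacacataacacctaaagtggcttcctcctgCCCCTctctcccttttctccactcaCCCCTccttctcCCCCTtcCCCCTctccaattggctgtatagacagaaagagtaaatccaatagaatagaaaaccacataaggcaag
SOL4: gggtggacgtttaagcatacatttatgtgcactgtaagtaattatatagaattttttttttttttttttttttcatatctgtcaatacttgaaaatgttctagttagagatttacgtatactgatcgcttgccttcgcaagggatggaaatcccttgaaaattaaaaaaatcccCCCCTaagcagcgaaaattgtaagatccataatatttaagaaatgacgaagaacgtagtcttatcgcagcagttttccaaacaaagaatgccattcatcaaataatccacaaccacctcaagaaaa
GND1: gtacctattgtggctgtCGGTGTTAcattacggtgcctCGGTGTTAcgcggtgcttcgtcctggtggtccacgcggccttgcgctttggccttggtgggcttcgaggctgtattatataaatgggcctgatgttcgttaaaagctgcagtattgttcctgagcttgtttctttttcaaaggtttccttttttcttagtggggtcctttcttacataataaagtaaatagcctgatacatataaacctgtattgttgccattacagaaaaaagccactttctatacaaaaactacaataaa
GND2: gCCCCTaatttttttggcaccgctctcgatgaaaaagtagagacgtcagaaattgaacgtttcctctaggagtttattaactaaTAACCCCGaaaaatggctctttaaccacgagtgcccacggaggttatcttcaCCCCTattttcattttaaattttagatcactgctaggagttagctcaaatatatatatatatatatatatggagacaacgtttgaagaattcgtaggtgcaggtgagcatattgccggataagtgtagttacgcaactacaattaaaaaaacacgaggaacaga
TKL2: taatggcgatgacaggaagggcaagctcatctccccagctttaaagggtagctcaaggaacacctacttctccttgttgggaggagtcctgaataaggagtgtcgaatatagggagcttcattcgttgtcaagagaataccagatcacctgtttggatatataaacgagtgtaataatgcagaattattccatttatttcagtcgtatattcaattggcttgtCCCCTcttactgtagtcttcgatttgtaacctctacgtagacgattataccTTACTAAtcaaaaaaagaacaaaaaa
NQM1: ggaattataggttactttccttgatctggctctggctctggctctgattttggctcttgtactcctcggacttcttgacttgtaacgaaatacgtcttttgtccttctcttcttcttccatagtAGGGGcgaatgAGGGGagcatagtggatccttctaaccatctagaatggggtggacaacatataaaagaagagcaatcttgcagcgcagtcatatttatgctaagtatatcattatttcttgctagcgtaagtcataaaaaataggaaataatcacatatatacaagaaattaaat

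The stress response element was present in the windows of 8 of the 9 genes, against 22.2% of 6001 promoter windows of the same length. GND1 was the gene without it. ZWF1 held 5 copies, GND2 and NQM1 held 2 each and the other 5 genes 1 each, and 3.45% of all windows held 2 or more. The Stb5 element, the site of a regulator of NADPH-producing genes, was found 2 times in GND1 and 1 time each in SOL3 and GND2, against 4.23% of all windows. In GND2 it reads TAACCCCG, on the other strand. The Yap1 element, bound by the oxidative stress regulator Yap1, was found in TKL2, against 7.82% of all windows. A match is a run of letters and not a measured site.

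Unfixed microcolonies stood apart in the tag levels of the stress forms. Set against Abs600 0.5 batch culture, which held no particles, SOL4 and NQM1 rose past the threshold of a Benjamini-Hochberg adjusted p of 0.05, and 0 of the 9 genes fell. Encapsulation and other differences between microcolonies and batch culture cannot be told apart in this comparison. Over all 5523 genes tested in that comparison, 1.94% passed in either direction, 0.76% upward and 1.18% downward. Against batch culture at Abs600 2, 0 of the 9 genes passed by edgeR's quasi-likelihood test, beside 0.742% of all genes (0.253% upward and 0.489% downward). There 4 of the 9 were at an unadjusted p under 0.05, beside 708 of 5523 genes. DESeq2 called 2 of the 9, beside 270 of all genes. In fixed unsorted particles against unfixed ones, a control for the fixation, SOL4, GND2 and NQM1 fell and 0 rose, beside 5.88% of all genes in either direction, 3.39% upward and 2.5% downward. These comparisons share the 2 unfixed libraries, and those with Abs600 0.5 share that batch culture, so they are not independent of each other.

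**Figure D1:**
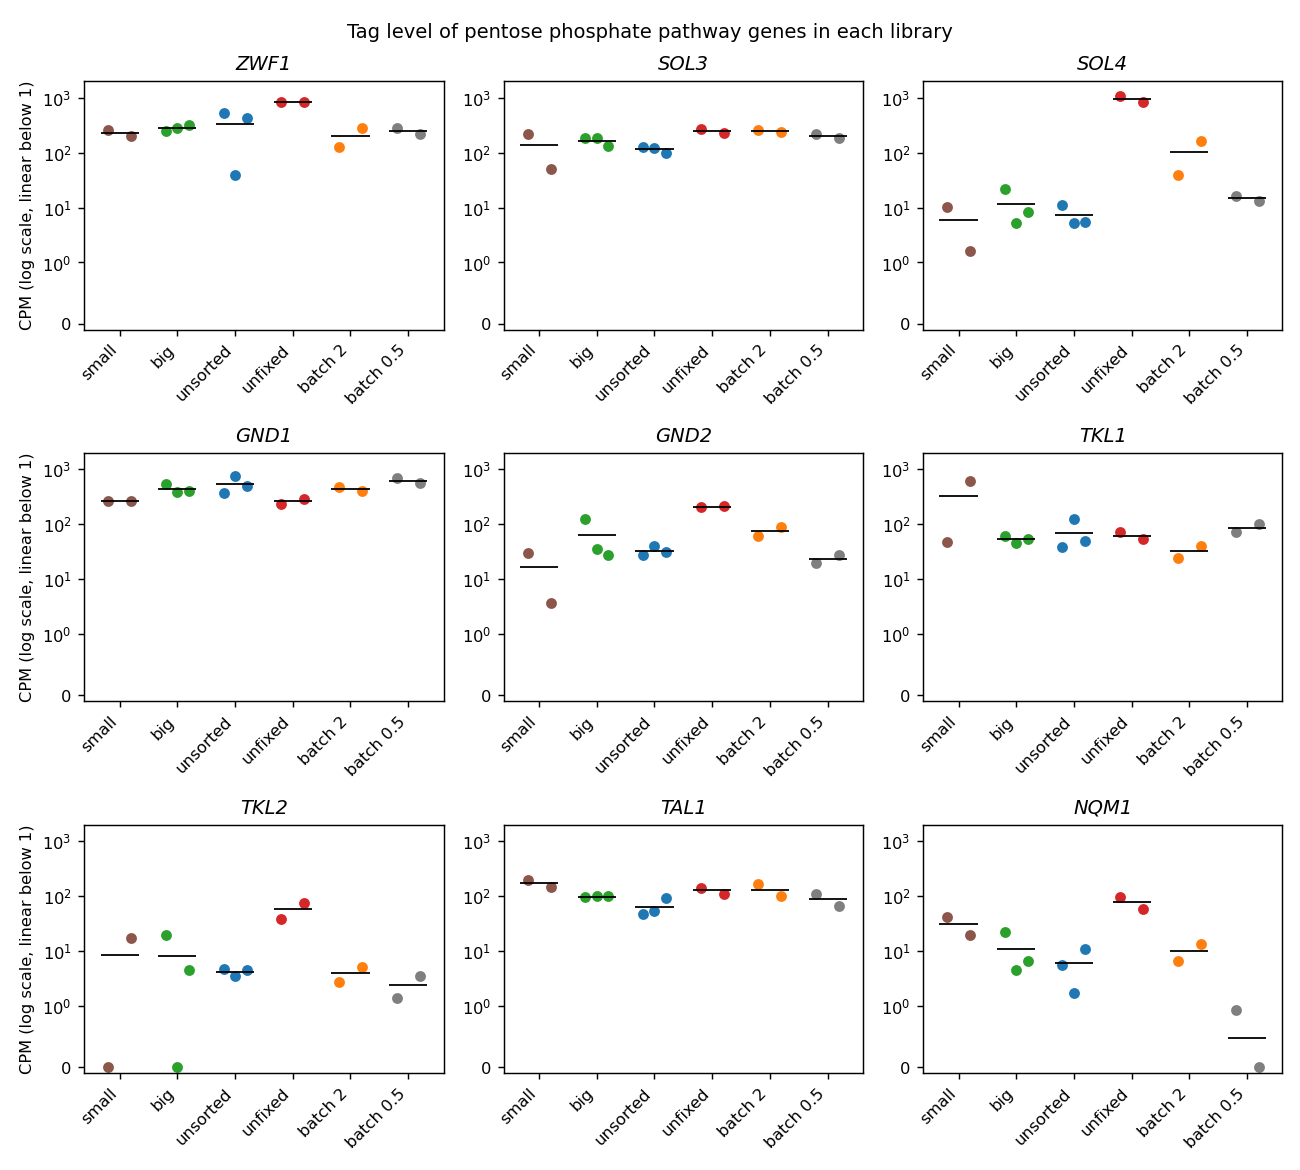
Tag level of each of the 9 genes in CPM (vertical axis, log scale, linear below 1) in small colonies, big colonies, fixed unsorted particles, unfixed particles and batch cultures at Abs600 2 and 0.5. Points are libraries and bars are group means; SOL4 stands at 1074 and 845 CPM in unfixed particles and at no more than 163 CPM in any other library.

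ZWF1 (YNL241C, chromosome XIV, 196426 to 197943, minus strand, R64) catalyses the first and committed step of the oxidative branch. It was at 841 and 818 CPM in unfixed particles, against 125 and 280 CPM in batch culture at Abs600 2 and 280 and 218 CPM at Abs600 0.5. Fixed unsorted particles held 514, 38.2 and 431 CPM. Both unfixed libraries lay above the other 12, and fixed replicate 2, with 44 tags, lay far below its 2 replicates. The log2 fold change of unfixed particles over batch culture was 1.73 (SE 0.80) at Abs600 0.5 and 2.03 (SE 0.80) at Abs600 2, and neither passed (edgeR quasi-likelihood test, adjusted p = 0.318 and 0.285). From the 4 libraries of each comparison alone, both passed (edgeR, adjusted p = 0.00364 and 0.0318). In small colonies ZWF1 was at 254 and 199 CPM, against 246, 277 and 317 CPM in big colonies, and these groups overlapped.

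SOL3 and SOL4 encode 6-phosphogluconolactonases, which carry out the second step. SOL4 (YGR248W, chromosome VII, 985972 to 986739, plus strand) was at 1074 and 845 CPM in unfixed particles, against 39.7 and 163 CPM in batch culture at Abs600 2 and 16.5 and 13.3 CPM at Abs600 0.5. Fixed unsorted particles held 11.2, 5.21 and 5.54 CPM, big colonies 21.9, 5.17 and 8.22 CPM and small colonies 10.3 and 1.59 CPM. No other library reached the level of the 2 unfixed ones. SOL4 rose by 6.001 on the log2 scale (SE 1.02) in unfixed particles over batch culture at Abs600 0.5 (edgeR quasi-likelihood test, adjusted p = 0.00935), and it fell by 6.98 (SE 0.89) in fixed particles relative to unfixed ones (adjusted p = 0.000708, edgeR). The first of these calls was lost without unfixed replicate 1, Abs600 0.5 replicate 1 or Abs600 0.5 replicate 2, at log2 5.81, 6.16 and 5.86 (edgeR, adjusted p = 0.0826, 0.101 and 0.149). Over batch culture at Abs600 2 its log2 fold change was 3.24 (SE 0.89, edgeR adjusted p = 0.101), which passed without the small libraries in the fit (edgeR, adjusted p = 0.00937).

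SOL3 (YHR163W, chromosome VIII, 423724 to 424473, plus strand) varied far less, from 226 to 269 CPM in unfixed particles, against 236 to 254 CPM in batch culture at Abs600 2 and 185 to 214 CPM at Abs600 0.5. Its log2 fold change over Abs600 0.5 was 0.31 (SE 0.58, edgeR adjusted p = 0.867). In fixed unsorted particles it was at 99.1 to 124 CPM, log2 -1.12 relative to unfixed ones (SE 0.53), which passed only in the fit without the small libraries (edgeR, adjusted p = 0.264 with them and 0.0183 without). Small colonies held 220 and 50.2 CPM of SOL3, against 131 to 183 CPM in big colonies. Summed over the pair, 1207 ± 192 CPM (SD, n = 2) in unfixed particles stood against 347 ± 74.2 CPM (SD, n = 2) at Abs600 2 and 214 ± 23.2 CPM (SD, n = 2) at Abs600 0.5. Most lactonase tags came from SOL4 in unfixed particles and from SOL3 in each other group.

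GND1 and GND2 encode 6-phosphogluconate dehydrogenases, the second NADPH-producing step. GND2 (YGR256W, chromosome VII, 1004624 to 1006102, plus strand) was at 208 and 214 CPM in unfixed particles, against 62.1 and 88.4 CPM in batch culture at Abs600 2 and 19.7 and 27.4 CPM at Abs600 0.5. Fixed unsorted particles held 27.8, 40.0 and 31.5 CPM. The unfixed libraries lay above all others, and big replicate 1 came next with 125 CPM. GND2 fell by 2.68 on the log2 scale (SE 0.76) in fixed particles relative to unfixed ones (edgeR quasi-likelihood test, adjusted p = 0.0491), a call lost when tags were counted to 200 nt after the ORF (log2 -2.61, edgeR adjusted p = 0.0562) and without any 1 of the 5 libraries, at log2 -2.83 to -2.56 (edgeR, adjusted p = 0.124 to 0.217). Over batch culture at Abs600 0.5 its log2 fold change was 3.16 (SE 0.90, edgeR adjusted p = 0.0861), which passed without the small libraries (edgeR, adjusted p = 0.00447).

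GND1 (YHR183W, chromosome VIII, 470960 to 472429, plus strand), the major form in growing cells, differed in the other direction. It was at 239 and 291 CPM in unfixed particles, against 484 and 397 CPM in batch culture at Abs600 2 and 696 and 559 CPM at Abs600 0.5. In fixed unsorted particles it was at 370, 767 and 506 CPM, and all of these lay above both unfixed libraries. The log2 fold change was -1.24 (SE 0.49) over Abs600 0.5 and 1.05 (SE 0.46) in fixed over unfixed particles, and neither passed (edgeR, adjusted p = 0.229 and 0.218). Without the small libraries in the fit both passed (edgeR, adjusted p = 0.0444 and 0.0475). Small colonies held 268 and 263 CPM, against 391 to 538 CPM in big colonies, at log2 -0.74 (SE 0.45, edgeR adjusted p = 0.37). The sum of the pair was 476 ± 40.6 CPM in unfixed particles, against 515 ± 43.0 CPM at Abs600 2 and 651 ± 91.2 CPM at Abs600 0.5 (SD, n = 2 each), a narrower range than that of either gene.

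TKL1 and TKL2 encode transketolases, which move 2-carbon units between sugar phosphates. TKL2 (YBR117C, chromosome II, 474392 to 476437, minus strand) was at 38.6 and 75.9 CPM in unfixed particles, against 2.76 and 5.08 CPM in batch culture at Abs600 2 and 1.41 and 3.51 CPM at Abs600 0.5. Fixed unsorted particles held 4.72, 3.48 and 4.50 CPM. The unfixed libraries were the highest, with 255 tags against 8 at Abs600 0.5, a rate ratio of 25.5 with a 95% interval for counting error of 12.7 to 59.7. Its log2 fold change of 4.55 (SE 1.91) did not pass over Abs600 0.5 (edgeR quasi-likelihood test, adjusted p = 0.262), and it passed without the small libraries (edgeR, adjusted p = 0.0409). Big colonies ranged from 0 to 19.8 CPM and small colonies from 0 to 17.3 CPM.

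TKL1 (YPR074C, chromosome XVI, 692796 to 694838, minus strand) was at 71.8 and 53.2 CPM in unfixed particles, against 24.1 and 40.4 CPM in batch culture at Abs600 2 and 73.3 and 99.7 CPM at Abs600 0.5. TKL1 was at 38.2, 124 and 48.9 CPM in fixed unsorted particles. It passed in no comparison by edgeR with all 14 libraries. In small colonies it was at 47.1 CPM in replicate 2 and 614 CPM in replicate 4, against 46.6 to 62.5 CPM in big colonies. The log2 fold change of 2.61 (SE 0.76, edgeR adjusted p = 0.0885), which passed with DESeq2 (adjusted p = 0.00749), rests on replicate 4, since it was -0.20 without that library. Small replicate 4 held 6174 TKL1 tags, and the 13 other libraries 70 to 194 each.

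TAL1 and NQM1 encode transaldolases, which move 3-carbon units. NQM1 (YGR043C, chromosome VII, 580435 to 581436, minus strand) was at 95.4 and 59.0 CPM in unfixed particles, against 6.55 and 13.3 CPM in batch culture at Abs600 2 and 0.940 and 0 CPM at Abs600 0.5. Fixed unsorted particles held 5.71, 1.74 and 10.7 CPM, big colonies 21.9, 4.63 and 6.50 CPM and small colonies 41.3 and 19.7 CPM. The unfixed libraries were the highest and those at Abs600 0.5, with 2 tags in all, the lowest. NQM1 rose by 7.08 on the log2 scale (SE 1.48) over Abs600 0.5 (edgeR quasi-likelihood test, adjusted p = 0.0202), and the tags alone gave a rate ratio of 137 with a 95% interval for counting error of 37.6 to 1134. With any 1 of those 4 libraries left out this call was lost, at log2 6.30 to 10.98 (edgeR, adjusted p = 0.0662 to 0.25). In fixed particles relative to unfixed ones it fell by 3.62 (SE 1.00, edgeR adjusted p = 0.044), a call lost without any 1 of the 5 libraries, at log2 -4.25 to -3.23 (edgeR, adjusted p = 0.0794 to 0.27).

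TAL1 (YLR354C, chromosome XII, 836350 to 837357, minus strand) was at 144 and 112 CPM in unfixed particles, against 165 and 98.9 CPM in batch culture at Abs600 2 and 110 and 65.3 CPM at Abs600 0.5. Fixed unsorted particles held 47.2 to 93.2 CPM, big colonies 95.1 to 100.2 CPM and small colonies 194 and 148 CPM. It passed in no comparison by edgeR, and its log2 fold change over Abs600 0.5 was 0.54 (SE 0.54, edgeR adjusted p = 0.714).

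**Figure D2:**
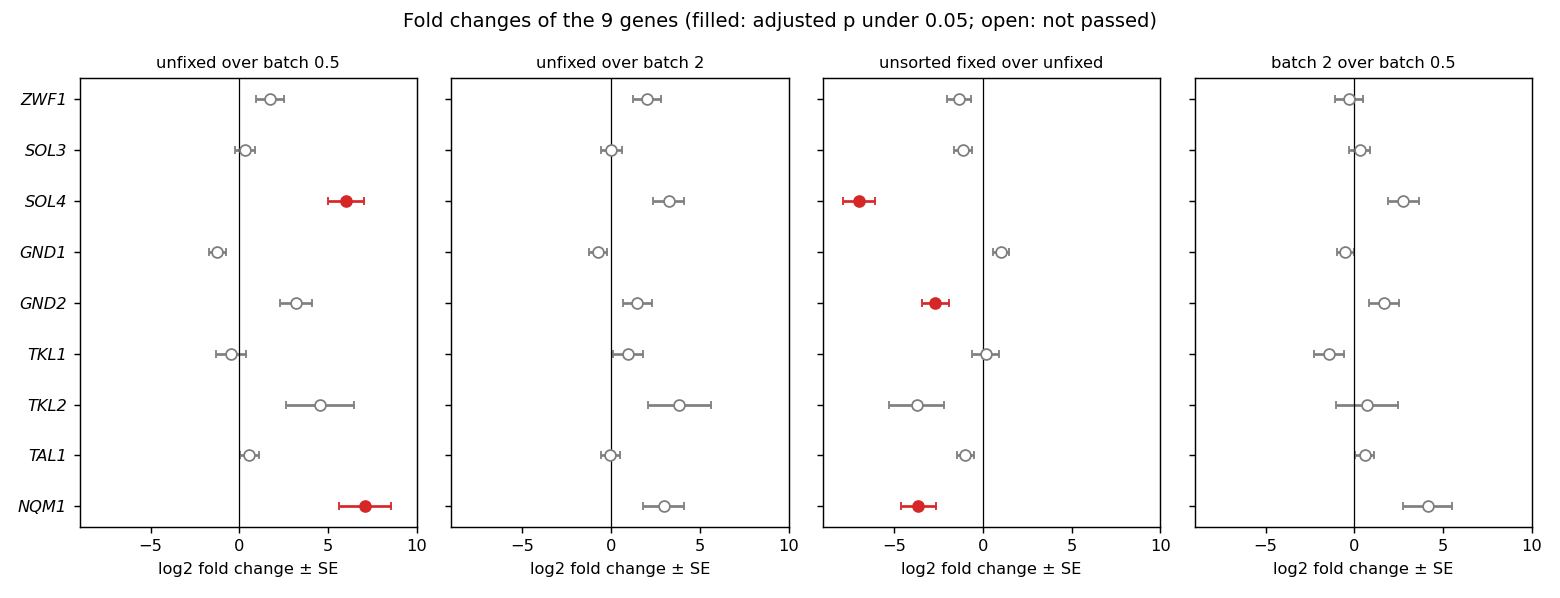
Log2 fold changes (horizontal axis) of the 9 genes with their SE as bars, in unfixed particles over batch culture at Abs600 0.5 and 2, in fixed over unfixed unsorted particles, and in batch culture at Abs600 2 over 0.5. Filled points passed an adjusted p of 0.05 by edgeR's quasi-likelihood test and open ones did not; SOL4 and NQM1 are filled in the first panel, and SOL4, GND2 and NQM1 in the third.

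The share of each pair's tags that came from the stress form shows how the balance moved without any scaling between libraries. SOL4 made up 79.9% and 78.9% of the SOL tags in unfixed particles (95% Wilson intervals 78.5% to 81.4% and 77.2% to 80.5%), against 13.5% and 40.8% in batch culture at Abs600 2 and 7.13% and 6.74% at Abs600 0.5. Its share in the 8 fixed libraries was 2.78% to 10.7%. GND2 made up 46.5% and 42.3% of the GND tags in unfixed particles, against 11.4% and 18.2% at Abs600 2 and 2.76% and 4.67% at Abs600 0.5. For both pairs the order was unfixed particles, then Abs600 2, then Abs600 0.5, with no overlap between the libraries of these 3 groups.

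NQM1 made up 39.9% and 34.6% of the transaldolase tags in unfixed particles, against 3.82% and 11.8% at Abs600 2 and 0.851% and 0% at Abs600 0.5, where 0 of 93 tags allow a share of up to 3.97% by the Wilson interval. TKL2 made up 35.0% and 58.8% of the transketolase tags in unfixed particles, against 10.3% and 11.2% at Abs600 2 and 1.89% and 3.40% at Abs600 0.5. The 2 unfixed libraries differed for the transketolases by more than their Wilson intervals of 29.3% to 41.2% and 53.1% to 64.4%. In the 8 fixed libraries the NQM1 share was 3.17% to 18.7% and the TKL2 share 0% to 24.1%, both highest in big replicate 1. With tags after the ORF alone the TKL2 share was 14.2% and 71.7% in unfixed replicates 1 and 2, against 10.7% and 13.7% at Abs600 2, and big replicate 1, at 26.7%, lay above unfixed replicate 1. The TKL2 shares of unfixed particles and fixed libraries overlapped in that count. With 2 libraries against 2 an exact two-sided permutation test cannot reach the threshold, so the shares themselves were not tested.

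**Figure D3:**
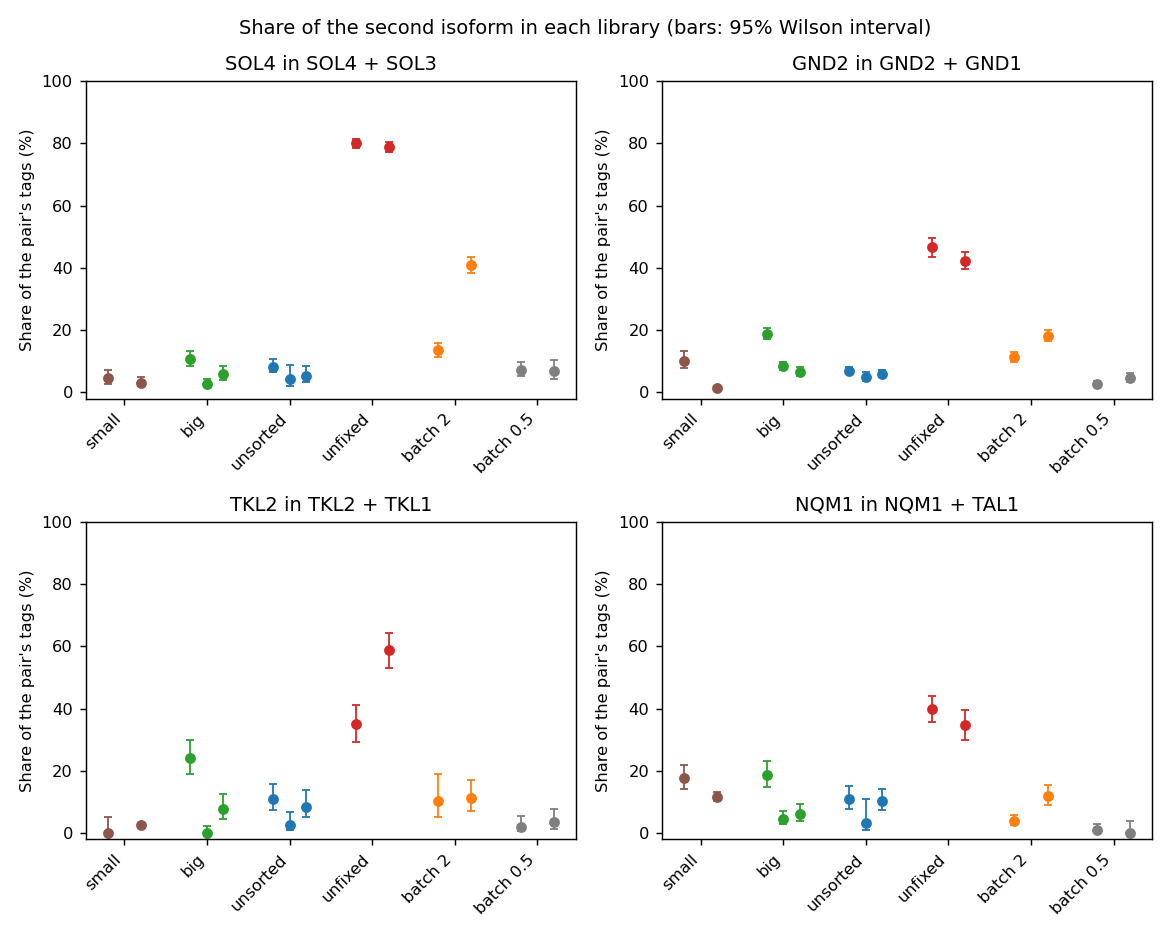
Share of the stress form in the tags of its pair (vertical axis, percent) in each library of small colonies, big colonies, fixed unsorted particles, unfixed particles and batch cultures at Abs600 2 and 0.5. Points are libraries and bars 95% Wilson intervals for counting error; in unfixed particles the SOL4 share is 79.9% and 78.9%, and at Abs600 0.5 it is 7.13% and 6.74%.

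The log2 ratio of the paired genes was tested with limma beside all genes. In unfixed particles over batch culture at Abs600 0.5, 3 of the 4 ratios rose, beside 2.33% of all genes and ratios tested. SOL4 over SOL3 rose by 5.67 (SE 0.80), GND2 over GND1 by 4.41 (SE 0.90) and NQM1 over TAL1 by 6.29 (SE 0.89; limma, adjusted p = 0.00569, 0.0302 and 0.00569). The ratio of TKL2 over TKL1 was at 4.90 (SE 1.69) and did not pass (limma, adjusted p = 0.185). These calls also rest on few libraries, and 0 to 2 of the 4 ratios passed with 1 of the 4 libraries left out. In fixed over unfixed unsorted particles 2 ratios passed: SOL4 over SOL3 fell by 5.94 (SE 0.73) and GND2 over GND1 fell by 3.67 (SE 0.82; limma, adjusted p = 0.00118 and 0.0252), beside 6.01% of all genes and ratios. In unfixed particles over Abs600 2, 0 of 4 passed, at log2 2.24 to 3.56 (limma, adjusted p = 0.0644 to 0.551), beside 0.995% of all genes and ratios, and 2 passed without the small libraries in the fit. In small over big colonies 0 of 4 passed (limma), beside 2.13% of all genes and ratios, and in the 3 other comparisons 0 of 4 passed beside 0%.

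Between the batch densities the stress forms were higher at Abs600 2 than at Abs600 0.5 in value, but 0 of the 9 genes and 0 of 5523 genes passed, that is 0%. At an unadjusted p under 0.05 edgeR gave 190 genes, and DESeq2 called 6 with adjustment. SOL4 had a log2 fold change of 2.76 (SE 0.89) and NQM1 of 4.13 (SE 1.38), with unadjusted p of 0.00696 and 0.00878 and adjusted p of 0.984 and 1 (edgeR). GND2 was at 1.68 (SE 0.86) and TKL2 at 0.70 (SE 1.75), and the TKL2 libraries overlapped between the densities. ZWF1 was at -0.30 (SE 0.78), SOL3 at 0.30 (SE 0.58) and TAL1 at 0.59 (SE 0.54). GND1 was at -0.51 (SE 0.48) and TKL1 at -1.42 (SE 0.86).

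The comparisons without the unfixed libraries gave no call among these genes by edgeR. In fixed unsorted particles over Abs600 0.5, 0 of the 9 genes and 0% of all genes passed (edgeR), with 119 genes at an unadjusted p under 0.05 and 1 called by DESeq2. SOL4 was at log2 -0.98 (SE 0.79) there and GND2 at 0.49 (SE 0.78), while NQM1 was at 3.46 (SE 1.33, edgeR unadjusted p = 0.0192). The 6 other genes were between -0.81 for SOL3 and 0.82 for TKL2. In big colonies over fixed unsorted particles, 0 of the 9 genes and 0% of all genes passed, with 50 genes at an unadjusted p under 0.05 and 0 by DESeq2. Their log2 fold changes ran from -0.36 for TKL1 to 0.93 for GND2. In small over big colonies 0 of the 9 genes passed by edgeR, beside 1.27% of all genes (0.561% upward and 0.706% downward). DESeq2 called 1 of the 9, TKL1, beside 606 of all genes. At an unadjusted p under 0.05 edgeR gave 2 of the 9 (GND2 and TKL1), beside 1113 of 5523 genes. Small replicates 2 and 4 were unlike in several genes. They held 220 and 50.2 CPM of SOL3, 10.3 and 1.59 CPM of SOL4 and 30.3 and 3.68 CPM of GND2. TKL1 was at 47.1 and 614 CPM, TKL2 at 0 and 17.3 CPM and NQM1 at 41.3 and 19.7 CPM. Closer values were those of ZWF1 (254 and 199 CPM), GND1 (268 and 263 CPM) and TAL1 (194 and 148 CPM).

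The members of the pathway also differed in where their transcripts ended. ZWF1 tags were most often 198 nt after the ORF, in each of the 6 groups, with a further set at 250 to 260 nt. That further set took 13.8% and 8.31% of ZWF1 tags in unfixed particles, against 3.32% and 2.52% at Abs600 2 and 3.19% and 30.5% at Abs600 0.5, so replicates of 1 group differed as much as the groups did. In small replicate 4, 32.6% of ZWF1 tags lay beyond 260 nt, against at most 1.78% in the 13 other libraries. With the tags of a group pooled, GND1 peaked at 119 nt and TAL1 at 126 nt in all 6 groups. By library, GND1 peaked at 114 nt in Abs600 2 replicate 1 and TAL1 at 159 nt in small replicate 4. Pooled GND2 tags peaked at 112 nt in 5 groups and at 108 nt at Abs600 2. That peak differed between replicates. It was at 108 nt in Abs600 2 replicate 1 and at 112 nt in replicate 2. Unfixed replicate 2, Abs600 0.5 replicate 2 and big replicate 3 also had it at 108 nt. SOL4 tags ended mainly at 95 or 102 nt, and 92.3% of those of unfixed particles lay within 10 nt of the main end, which is also an end used in batch culture.

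Part of the tags of the non-oxidative genes lay inside the ORF. Of the TKL2 tags, 65 of 85 in unfixed replicate 1 and 18 of 170 in unfixed replicate 2 were inside it, and in small replicate 4 149 of 174 lay in its first 100 nt. With the tags of a group pooled, 34.7% of TKL1 tags from unfixed particles lay inside the ORF, 15.5% at Abs600 2 and 3.36% at Abs600 0.5. Replicates differed widely in this. Unfixed replicate 1 had 23.4% of its TKL1 tags there and replicate 2 had 49.6%. Abs600 2 replicate 1 had 4.29% and replicate 2 had 21.0%, close to unfixed replicate 1. For Abs600 0.5 replicates 1 and 2 the values were 0.641% and 6.34%. NQM1 had 0 of 210 and 25 of 132 tags inside the ORF in the unfixed libraries. With tags after the ORF only, an alternative chosen after seeing the data, NQM1 kept its call over Abs600 0.5 at log2 7.11 (edgeR, adjusted p = 0.0318), and TKL2 was at 4.04 (edgeR, adjusted p = 0.352).

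**Figure D4:**
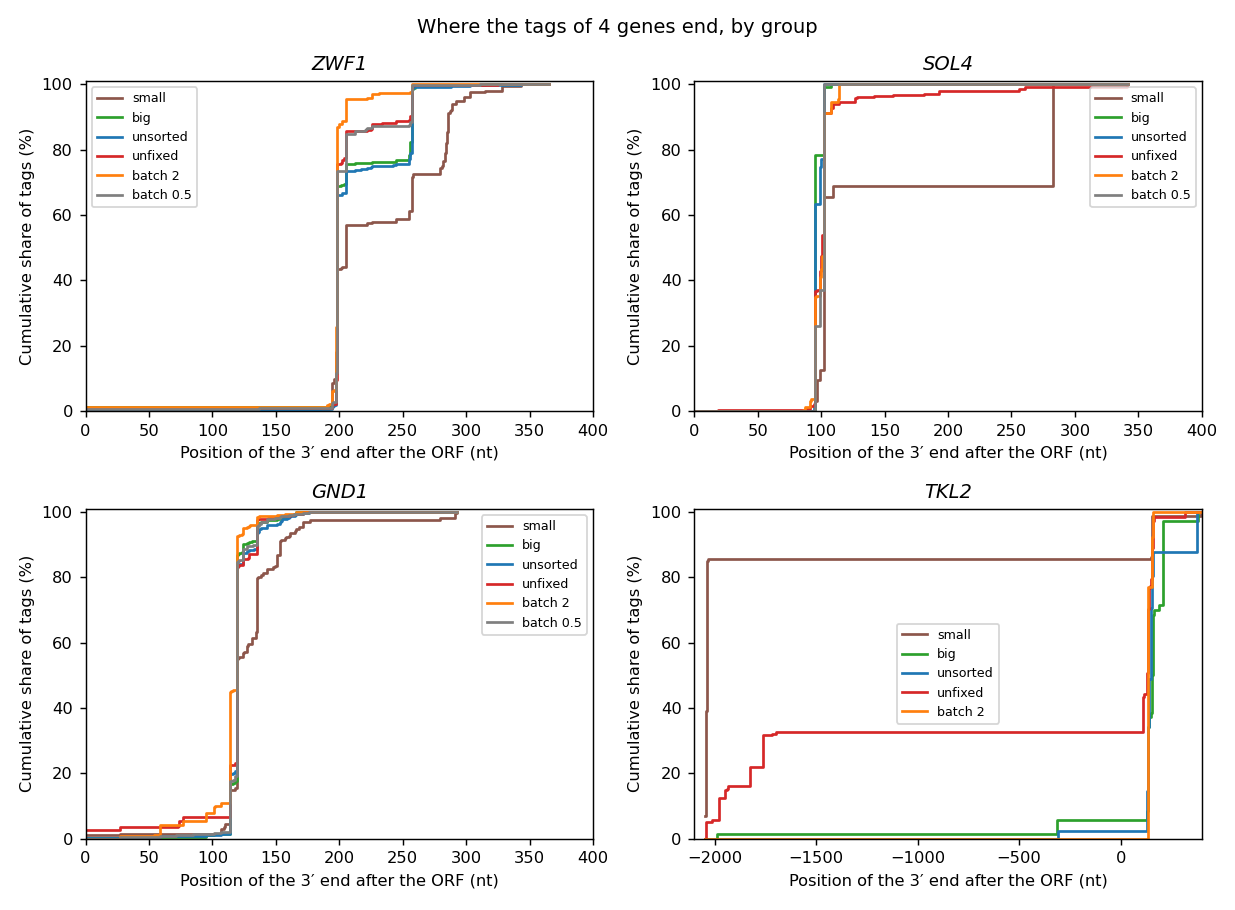
Cumulative share of the tags of ZWF1, SOL4, GND1 and TKL2 (vertical axis, percent) by distance of the 3′ end from the end of the ORF (horizontal axis, nt, negative inside the ORF), 1 line per group with at least 20 tags. Lines pool the libraries of a group. ZWF1 has its main end at 198 nt and a further set at 250 to 260 nt. Of the TKL2 tags of small colonies, 85.6% lie inside the ORF, and all 174 come from small replicate 4.

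Paralogs can share or lose tags in alignment, so the paired genes were compared in sequence. Their coding sequences were 53.5% identical for SOL4 and SOL3, 71.7% for GND2 and GND1, 66.1% for TKL2 and TKL1 and 64.7% for NQM1 and TAL1. The longest run shared by a pair in the 300 nt after the ORF was 7 to 13 nt. With the last 100 nt of the ORF included it was 20 nt for GND2 and GND1, 17 nt for NQM1 and TAL1, 9 nt for TKL2 and TKL1 and 8 nt for SOL4 and SOL3. The sources used here do not say how reads with more than 1 match were treated. Genes lie on the opposite strand within 400 nt of the ends of ZWF1, SOL3, GND2, TAL1 and NQM1, and the tags carry strand, so those were not counted here.

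Genes of neighbouring reactions were read from 5 further lists. A list of 8 genes around glucose 6-phosphate held HXK1, HXK2, GLK1, PGM1, PGM2, PGI1, PFK1 and PFK2. Its median log2 fold change in unfixed particles over batch culture at Abs600 0.5 was 0.18, beside -0.01 over all genes. There 0 of the 8 fell, 5 did not pass and 3 rose. They were PGM2, phosphoglucomutase (5.83, SE 0.99), HXK1, a glucose-repressed hexokinase (5.02, SE 1.00), and GLK1, glucokinase (3.99, SE 0.96; edgeR, adjusted p = 0.00935, 0.0165 and 0.0421). PGM2 also rose over Abs600 2, by 4.19 (SE 0.90; edgeR, adjusted p = 0.0455). In fixed over unfixed particles PGM2, HXK1 and GLK1 fell by 7.49, 7.74 and 4.63, and 0 of 8 rose (edgeR, adjusted p = 0.00045, 0.00051 and 0.00538).

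Of 16 other genes of pentose and ribose phosphate metabolism, 15 were tested, and 0 passed in unfixed particles over Abs600 0.5. RKI1, ribose 5-phosphate isomerase, was at log2 -2.54 (SE 0.84) there, and RPE1, ribulose 5-phosphate epimerase, at -1.71 (SE 0.72; edgeR, adjusted p = 0.143 and 0.263). In fixed over unfixed particles XKS1, xylulokinase, fell by 3.38 (SE 0.80), and GRE3, an aldose reductase that reduces xylose, by 3.35 (SE 0.70; edgeR, adjusted p = 0.0209 and 0.0108), with 0 rising. Of 8 genes of other NADPH sources, ALD6, the cytosolic acetaldehyde dehydrogenase, fell in fixed over unfixed particles by 3.03 (SE 0.59, edgeR adjusted p = 0.0073), and IDP2, the cytosolic NADP-linked isocitrate dehydrogenase, fell in small over big colonies by 3.04 (SE 0.57, edgeR adjusted p = 0.0345). In both cases 0 of 8 rose. Of 11 NADPH-linked antioxidant genes and 9 regulators, among them STB5, YAP1, MSN2 and MSN4, 0 passed in any of the 7 comparisons by edgeR. In unfixed particles over Abs600 0.5 the antioxidant list had a median log2 fold change of 0.47 and the regulators of 0.51, with 0 genes of either at an unadjusted p under 0.05.

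The genes whose levels most resembled those of each member over the 14 libraries differed between the members. These likenesses share the 2 high unfixed libraries and the library sizes, and are given as descriptions. For ZWF1 the nearest was YMR099C, which encodes glucose 6-phosphate 1-epimerase, with Pearson's r of 0.877 over 14 libraries. YMR099C was at 432 ± 89.5 CPM in unfixed particles, against 132 ± 27.4 CPM at Abs600 0.5 (SD, n = 2 each). For SOL4 they were MRX18, SYM1 and BDH1 (r of 0.966, 0.954 and 0.939), of which BDH1 encodes butanediol dehydrogenase. For GND2 they were COQ4, of ubiquinone synthesis, RDL1 and YJR096W, an aldo-keto reductase (0.948, 0.934 and 0.931). For NQM1 they were EGO4, MPC3, a mitochondrial pyruvate carrier subunit, and DLD1, a lactate dehydrogenase (0.881, 0.859 and 0.832). For TKL2 they were RTC2, AMS1, the vacuolar alpha-mannosidase, and USV1 (0.924, 0.923 and 0.914). Among the growth forms, GND1 was nearest to HST1 (0.881), SOL3 to GRX5 (0.947), TKL1 to YCR024C-B (0.951) and TAL1 to COX12 (0.798). Within the pathway SOL4 and GND2 were the most alike of the 36 pairs of members (0.846), and GND1 and NQM1 the most opposed (-0.789).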

How the data were processed

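Polyadenylated RNA was measured by 3′T-fill, which reads transcript 3′ ends, in 16 libraries. The deposited table holds raw counts of tags at 542908 stranded positions, with no normalization, per the file headers and values. Per the submitters' processing notes, CASAVA 1.8.2 and GSNAP were used, with builds R64 and sacCer3. Filters, duplicate removal and treatment of reads with several matches are not given in the sources used here. Small replicates 1 and 3 were left out, as the submitters excluded them for low quality, which leaves 14 libraries.

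The table's strand was turned, since tags of isolated genes lay on the other one. A gene's count is its tags in the ORF or up to 400 nt after it, before the next gene on that strand (RefSeq R64). The main test was edgeR's quasi-likelihood test (version 4.0.16, robust, TMM, filterByExpr), fitted once to the 6 groups, with 8 residual degrees of freedom, Benjamini-Hochberg adjusted over 5523 genes, threshold 0.05. Small libraries share the estimate of the spread in that fit. Each SE is the absolute log2 fold change over the root of its F statistic. Pair ratios were tested with limma 3.58.1 on log2 values with 0.5 added to each tag count, beside log2 CPM of all genes. Replicate pairs of a group had chi-squares of 24.8 to 415 per degree of freedom, so none was merged in the edgeR and limma fits. Tags were summed over the libraries of a group for the rate ratios and for the end positions by group. No molecular identifiers are described, so intervals cover counting error only. Tests were tried on simulated counts. Python 3.11.15 with Biopython 1.88, numpy 2.4.6, pandas 2.3.3 and matplotlib 3.10.9, and R 4.3.3 with DESeq2 1.42.0, were also used.

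The 9 genes and the lists were chosen with earlier results of these data known. All 9 are covered in each comparison, by levels, a fold change or a range. List genes are named where they passed, and the 3 genes most like each member were taken among genes with a mean of at least 5 CPM, by Pearson's r of log2 CPM. The list genes RKI1, RPE1, STB5, YAP1, MSN2 and MSN4 were named outside this rule, after their values were seen. Identity was computed on coding sequences in place of proteins, which were not used here. Alternatives were DESeq2, its size factors in edgeR, no count filter, a 200 nt window, tags after the ORF only, fits without the small libraries or with 2 groups alone, a replicate block, a pseudocount of 2 and each library left out.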

Additional observations from a re-analysis of the deposited data

Results flagged for a closer look

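In small replicate 3, a library of 839550 tags that the submitters excluded, 4 of the 9 genes had more tags per 1000000 gene tags than any batch library. The share of all genes that did so was not computed, so this count is no result about the 9 genes. That library had tags in 3657 genes, against 5472 to 5526 in the batch libraries. ZWF1 was at 989.5 in it, against at most 290.7 in batch culture. SOL3 was at 316.1 against 245.3, and GND1 at 666.7 against 665.2. SOL4 was at 249.7 against at most 168.8, and all 188 of its tags lay at 1 position. The same library had 0 tags of GND2 and NQM1 and 2 of TAL1.

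Antisense tags, on the strand opposite to the gene and counted inside its ORF only, were also compared. For 3 of the 9 genes, SOL4, TKL2 and NQM1, both unfixed libraries lay above all batch libraries. The share of all genes with this pattern was not computed, so it cannot be read as particular to these genes. SOL4 had a mean of 39.23 antisense tags per 1000000 gene tags in unfixed particles (59.4 and 19.0), against at most 1.26 in any batch library. TKL2 had 18.89 (31.9 and 5.86), against at most 3.55. NQM1 had 12.23 (8.84 and 15.6), against at most 1.94. The antisense share over ORFs of isolated genes was also higher in the unfixed libraries, at 19.9% and 20.6%, than in batch culture. In small colonies that share was 21.3% and 18.2%, while SOL4 had 0 and 14 antisense tags, TKL2 0 and 0 and NQM1 0 and 44. The part of the share in these values was not tested. No difference between these groups was tested for antisense tags.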

How the results depend on the processing

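Of the 9 genes, SOL4 and NQM1 passed in unfixed particles over batch culture at Abs600 0.5, and SOL4, GND2 and NQM1 in fixed over unfixed particles, and the counts moved with the spread of the small libraries and with the number of libraries. No called fold change or ratio changed sign under an alternative, while 32 fold changes of members and 7 pair ratios did where neither value passed. The cause of the moves below was not tested. In unfixed particles over Abs600 0.5, the 2 members and 107 genes called became 4 and 403 with DESeq2, 5 and 677 without the small libraries, and 6 and 985 from the 2 groups alone. Over Abs600 2, 0 members and 41 genes became 2 and 270 with DESeq2, 1 and 481 without the small libraries (with 2 pair ratios in place of 0), 4 and 268 from the 2 groups alone, and 27 genes with a window of 200 nt. In fixed over unfixed particles, 3 members and 325 genes became 6 and 1093 without the small libraries, and the genes 638 with DESeq2 and 834 from the 2 groups alone. DESeq2 called 1 gene in fixed particles over Abs600 0.5, 6 in Abs600 2 over 0.5 (16 from the 2 groups alone), and 1 member and 606 genes in small over big colonies, where 70 became 0 from the 2 groups alone and 0 with the 2 excluded small libraries.

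With 1 library left out, 0 to 1 members, 0 to 2 pair ratios and 1 to 28 genes passed in unfixed particles over Abs600 0.5, and 1 to 31 genes over Abs600 2. In fixed over unfixed particles it was 1 member, 1 ratio and 36 to 189 genes. In small over big colonies it was 0 to 4 members, 0 to 1 ratios and 0 to 1986 genes, the most without small replicate 4. A lone library was assumed to vary like the other groups.

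Replicate numbers did not pair the libraries: same-numbered libraries correlated in their deviations at -0.168 to 0.186. With a replicate block, 6 members and 911 genes passed in unfixed particles over Abs600 0.5, 2 and 131 over Abs600 2, 603 genes in fixed over unfixed particles, and 1 member and 87 genes in Abs600 2 over 0.5. With the numbers crossed in a replicate block, chosen after seeing a correlation of -0.163, the last counts were 4 members, 312 genes and 4 ratios. No paired analysis was possible for small over big colonies because they share 1 replicate number. The share of TKL2 at Abs600 2 moved to 12.2% with tags after the ORF only. Depth limits the stress forms most: NQM1 had 2 tags and TKL2 8 tags at Abs600 0.5.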
